A study of Homo sapiens with 16 samples.

Results

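The mitochondrial carriers of the SLC25 family are described here by where their mRNAs lay in sucrose gradients. Members were all genes of the deposited table whose symbol begins with SLC25A and a number, which gave 40 of 13148 genes. Cultures of the human line 293S, a HEK293 derivative, were either left untreated (control) or given 1 mM sodium arsenite for 30 minutes. Arsenite is an oxidative stressor known to block the start of translation. Total RNA from 8 fractions of 1 gradient per treatment was sequenced, 1 library per fraction. With 16 libraries and no replicate, every difference below is between 2 gradients, has no replicate check and carries no p-value. The deposited values are shares of a gene's total over the 8 fractions of a gradient, so neither the level of an mRNA nor the depth behind a share is known, and cell identity cannot be checked from marker levels. Whether fraction 1 was the top or the bottom is not in the labels.

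SLC25 proteins carry metabolites, nucleotides, cofactors and ions across the inner mitochondrial membrane, which is otherwise closed to most of them. They are encoded in the nucleus, made on cytosolic ribosomes and imported, so their supply depends on translation in the cytosol, and polysome gradients sort mRNAs by the size of the particles that they travel in. The best known members are the ADP/ATP carriers SLC25A4 and SLC25A5 and the phosphate carrier SLC25A3, which together supply ATP synthase with its substrates and export the ATP made. SLC25A17 resides in peroxisomes and SLC25A46 in the outer mitochondrial membrane, so the family name covers them by structure and not by place. A further ADP/ATP carrier, SLC25A6, is not analysed here.

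The family is built of repeats that each carry a signature, which in the coding sequence reads as a proline codon, an aspartate or glutamate codon 2 codons on and a lysine or arginine codon 5 codons on from the first. Searched in frame in 1 GENCODE 29 transcript per gene, the pattern occurred at least once in 37 of 40 members, against 33.5% of the 13061 genes with a sequence, and at least 3 times in 25 members, against 3.32% of genes. SLC25A46, SLC25A51 and SLC25A53 had no copy of these letters. The stretches below show the shared repeat in the mRNAs that lay at the extremes of the results, with the 3 codons of the signature in capitals. A match is a description of the letters. In SLC25A23 and SLC25A27, whose first copies lie at codons 5 and 4, a later copy is shown.

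SLC25A5, copy 1: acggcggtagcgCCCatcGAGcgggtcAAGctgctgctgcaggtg
SLC25A4, copy 1: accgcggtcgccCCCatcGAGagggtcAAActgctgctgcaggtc
SLC25A5, copy 2: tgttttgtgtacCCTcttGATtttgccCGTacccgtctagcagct
SLC25A4, copy 2: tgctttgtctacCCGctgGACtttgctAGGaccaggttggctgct
SLC25A5, copy 3: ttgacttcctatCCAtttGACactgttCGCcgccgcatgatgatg
SLC25A4, copy 3: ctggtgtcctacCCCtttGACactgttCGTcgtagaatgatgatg
SLC25A3, copy 1: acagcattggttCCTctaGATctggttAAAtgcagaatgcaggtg
SLC25A11, copy 1: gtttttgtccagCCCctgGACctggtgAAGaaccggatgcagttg
SLC25A23, copy 3: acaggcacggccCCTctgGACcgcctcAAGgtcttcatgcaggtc
SLC25A27, copy 2: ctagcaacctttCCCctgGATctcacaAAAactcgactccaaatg

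In SLC25A4 and SLC25A5 the copies start at codons 28, 133 and 230 of coding sequences of 894 nt. These coding sequences were 77.2% identical, with no shared run longer than 14 nt, so reads of the coding part can be told apart.

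Positions are given below as the mean fraction number of an mRNA, weighted by its shares. The shift is the position with arsenite minus the position in the control. Because nearly all mRNAs lay at lower numbers with arsenite (median shift −1.46 fractions over all genes), each gene is compared by its relative shift, the shift minus this median. A gene is said to have moved when this value reached 0.5 fractions in either direction and its sign held after dropping any single fraction number from both gradients (the sign rule).

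As a family the carriers shifted about as far as the typical mRNA, from somewhat lower fraction numbers. The medians of the positions were 4.24 without and 2.77 with arsenite, against 4.54 and 3.10 over all genes, and the median relative shift was −0.06. Of the 40 members, 10 moved lower (25%, against 24.0% of all genes), 11 moved higher (27.5%, against 23.6%) and 19 met neither rule. These shares are near the background in both directions. At a threshold of 0.25 fractions 11 members moved lower and 12 higher, against 31.3% and 34.8% of all genes, and at 1 fraction 6 moved lower and 3 higher, against 9.33% and 6.69%. With fractions weighted by size factors, which equalise the typical gene between libraries, 10 moved lower and 14 higher, against 26.4% and 28.7%. All 40 members lay lower with arsenite than in the control, as did 12920 of all genes. This common shift depends on how fractions are scaled against each other. Size factors take out most of a shift common to all genes by construction, so they cannot test it. With size factors the median shift was −0.22 for the members and −0.23 over all genes. On this scale 25 of 40 members and 7734 of all genes lay lower with arsenite.

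The members differed widely among themselves. Relative shifts ran from −1.84 for SLC25A5 to 1.40 for SLC25A23, with quartiles of −0.40 and 0.53, against −0.52 and 0.48 over all genes. In the control, fraction 5 was the largest fraction for 14 members (35%, against 28.6% of all genes). Fractions 3 and 4 were for 8 each (20%, against 10.71% and 20.58%) and fraction 6 for 7 (17.5%, against 21.64%). Fraction 2 was for 2 (5%, against 2.33%) and fraction 7 for 1 (2.5%, against 14.9%). With arsenite, fraction 2 was the largest for 20 members (50%, against 34.55% of all genes). Fraction 3 was for 11 (27.5%, against 37.16%) and fraction 1 for 7 (17.5%, against 14.25%). Fraction 4 was for 2 (5%, against 5.61%) and fraction 5 for 0 (all genes 8.43%). The summed share of fractions 5 to 8 had a median of 47.7% in untreated cells and 11.3% with arsenite, against 53.9% and 16.4% over all genes. It was lower with arsenite in 37 of 40 members and in 12585 of 13148 genes. The median change was −34.9 percentage points for the members (all genes −33.5). Size factors take out most of this common change by construction. With them the summed share was lower in 25 members and in 7268 of all genes. Its median change was then −4.75 percentage points (all genes −2.82). For 18 members these 4 fractions held 50% or more in the control, and for 0 with arsenite (13 and 9 with size factors). Over all genes these counts were 7711 and 308 (6838 and 5903 with size factors).

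**Figure D1:**
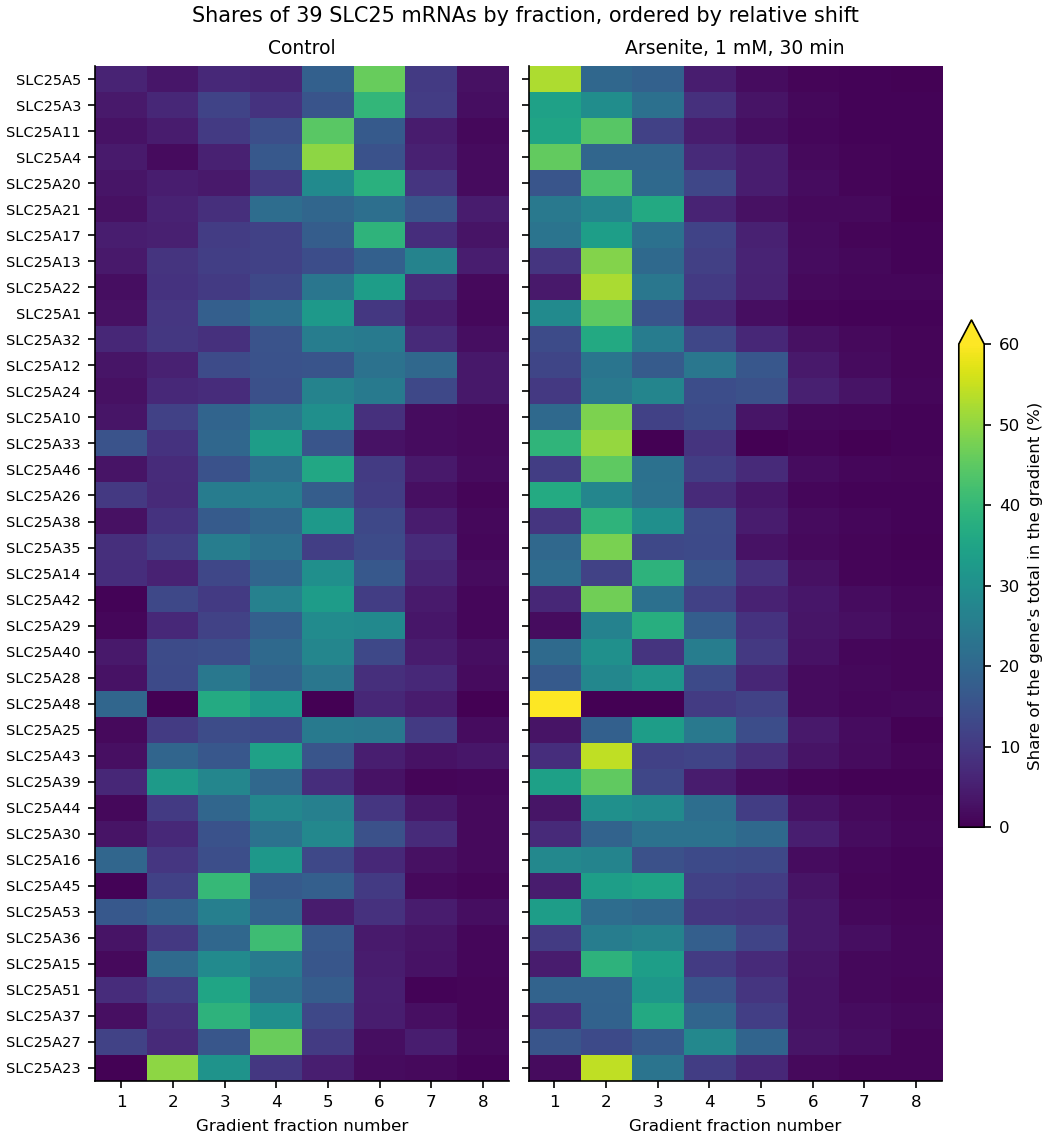
Share of each gene's total (%, colour, topped at 60) in fractions 1 to 8 of the control gradient (left) and the arsenite gradient (right), with 1 row for each of 39 SLC25 mRNAs and rows ordered from the lowest relative shift (SLC25A5) to the highest (SLC25A23). Mass lies around fractions 5 and 6 in the upper rows of the control panel, and in fractions 1 to 3 for most rows with arsenite.

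The ADP/ATP carriers, the phosphate carrier and the oxoglutarate carrier had the 4 lowest relative shifts of the family. SLC25A5, the ADP/ATP carrier of proliferating cells, had control shares of 5.94, 3.58, 6.86, 6.26, 18.4, 46.0, 10.2 and 2.71% in fractions 1 to 8, and arsenite shares of 52.7, 20, 18.6, 4.89, 2.05, 0.837, 0.474 and 0.405%. Its peak thus lay in fraction 6 of the control and in fraction 1 with arsenite, where its share was above the median of 9.41% over all genes. The position went from 5.20 to 1.90, and the relative shift of −1.84 was number 32 from the lowest of all 13148 genes (−1.19 against genes of the same mRNA length). SLC25A4, the form of heart and skeletal muscle, had shares of 4.36, 1.71, 5.44, 16.5, 49.7, 15.1, 5.59 and 1.67% in the control, and 45.5, 19.9, 19.7, 7.05, 4.87, 1.42, 0.891 and 0.586% with arsenite. It peaked at fraction 5 of the control, 1 fraction before SLC25A5, and likewise in fraction 1 with arsenite. Its relative shift was −1.19, but −0.55 without fraction 1.

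SLC25A3, which brings in phosphate, had shares of 4.21, 6.72, 12, 8.71, 15.6, 39.8, 10.7 and 2.31% in the control, and 34.4, 29.5, 22.1, 8.36, 3.15, 1.33, 0.690 and 0.473% with arsenite. The control peak in fraction 6 was gone with arsenite, and shares fell off from fraction 1 onward. It lay at 4.98 and 2.26, with a relative shift of −1.27 (−0.84 without fraction 6). SLC25A11, which exchanges oxoglutarate for malate, had shares of 3.01, 4.62, 10.2, 14.5, 44.7, 17.0, 4.62 and 1.39% in the control, and 35.1, 44.3, 11.7, 4.68, 2.16, 0.953, 0.580 and 0.534% with arsenite. Its peak moved from fraction 5 to fraction 2, and its relative shift was −1.22. In fractions 5 to 8 these 4 mRNAs had between 67.7% (SLC25A11) and 77.4% (SLC25A5) of their total in the control, and between 3.77% (SLC25A5) and 7.77% (SLC25A4) with arsenite.

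**Figure D2:**
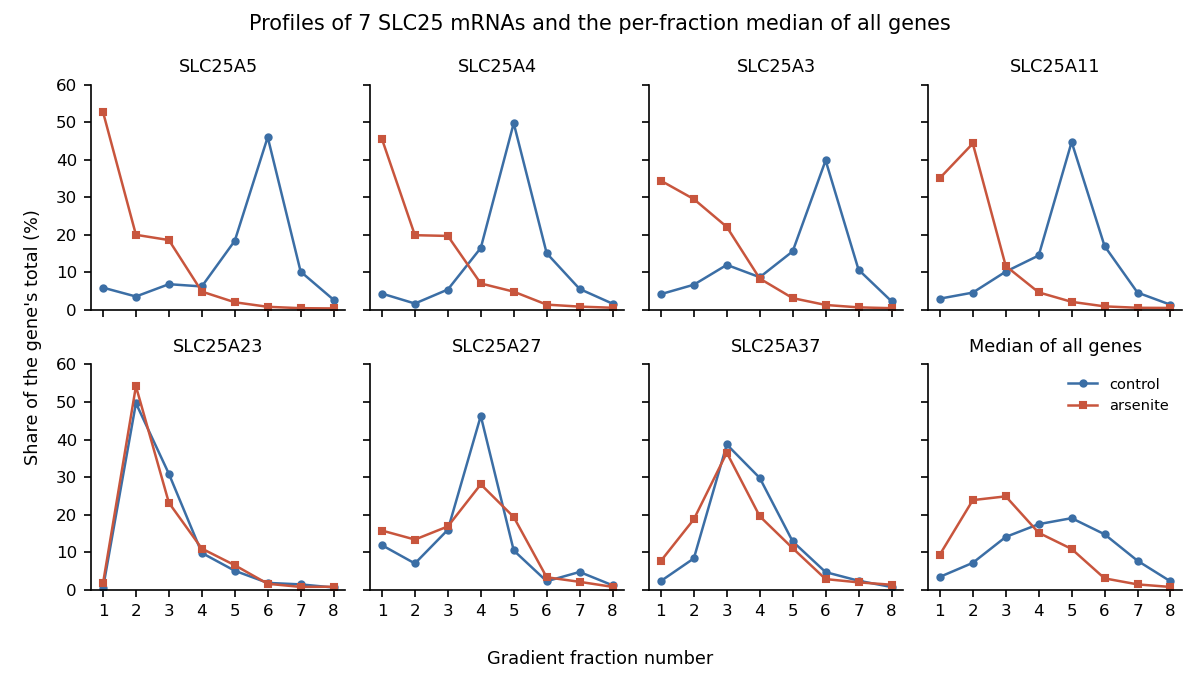
Share of the gene's total (%) against fraction number for 7 SLC25 mRNAs and, in the last panel, the median share of all genes in each fraction, with control in blue circles and arsenite in red squares, 1 library per point. The control peaks of SLC25A5, SLC25A4, SLC25A3 and SLC25A11 in fractions 5 and 6 (39.8 to 49.7%) are absent with arsenite. In these deposited shares SLC25A23 has nearly the same profile in both gradients.

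Among the 9 carriers of nucleotides and phosphate, 4 moved lower and 2 higher, where 24.0% and 23.6% of all genes did. Besides SLC25A5, SLC25A3 and SLC25A4, the peroxisomal nucleotide carrier SLC25A17 moved lower, from 4.96 to 2.54 (relative shift −0.96, and −0.55 without fraction 6). The ATP-Mg/phosphate carriers answer to calcium and set the adenine nucleotide pool of the matrix, and of the 3 measured SLC25A23 lay apart from SLC25A24 and SLC25A25. It had shares of 0.462, 49.7, 30.9, 9.84, 5.10, 1.87, 1.47 and 0.644% in the control, and 1.71, 54.2, 23.2, 11, 6.57, 1.63, 0.800 and 0.842% with arsenite. Most of it was already in fractions 2 and 3 of the untreated gradient, and in the deposited shares it hardly changed place (2.84 and 2.79). With size factors it lay higher with arsenite, at a relative shift of 1.82 where the median shift over all genes was −0.23. Its control position was number 105 from the lowest of all genes, and its relative shift of 1.40 was number 272 from the highest (0.61 against genes of the same control position). SLC25A24 lay at 5.01 and 3.33 and SLC25A25 at 4.73 and 3.50, with relative shifts of −0.22 and 0.23, and neither met the rule. Of the pyrimidine nucleotide carriers, SLC25A36 lay at 3.89 and 3.22 and moved higher (0.78, and 0.32 against genes of the same control position). SLC25A33 lay at 3.50 and 1.86 (−0.19) and was listed at 0 in arsenite fractions 3, 5 and 7. It met the rule for lower only against genes of the same control position (−0.98).

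Carriers of carboxylates, aspartate and glutamate, which link the citric acid cycle with the cytosol, had negative relative shifts in all 7 cases, with a median of −0.64 (−1.05 with size factors). Of these, 5 moved lower and none higher, against 24.0% and 23.6% of all genes. With size factors 4 moved lower and none higher, against 26.4% and 28.7%. SLC25A10 turned positive against genes of the same mRNA length (0.19) and without fraction 5 (0.22). SLC25A12 did so against genes of the same control position (0.09). SLC25A13 and SLC25A12 are the aspartate/glutamate carriers of the malate-aspartate shuttle, with coding sequences of 2025 and 2034 nt that were 71.7% identical. SLC25A13 peaked in fraction 7 of the control with 26.8%, the only member to do so, and had 48.8% in fraction 2 with arsenite (relative shift −0.93, and −0.53 without fraction 7). SLC25A12 had 22.5 and 20.3% in fractions 6 and 7 of the control but kept 23.9 and 16.3% in fractions 4 and 5 with arsenite (−0.25), and did not meet the rule. Control positions of this pair differed by 0.07 fractions (5.01 and 5.09) and arsenite positions by 0.61 (3.31 and 2.70).

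SLC25A21, the oxoadipate carrier, lay at 5.02 and 2.47 (−1.09, and −1.92 with size factors). SLC25A1, which exports citrate for lipid synthesis, lay at 4.25 and 2.16 (−0.63), and lost the call against genes of the same mRNA length (−0.25) and without fraction 1 (−0.41), 5 (−0.25) or, by the sign rule, 2 (−0.87). The glutamate carrier SLC25A22 lay at 4.84 and 2.75 (−0.64), with 52.4% in arsenite fraction 2, and lost the call with size factors (−0.19), against genes of the same control position (−0.45), and without fraction 2 (−0.22), 6 (−0.30) or, by the sign rule, 3 (−0.72). SLC25A10, the dicarboxylate carrier, lay at 4.06 and 2.41 (−0.19) and did not meet the rule, although against genes of the same control position it did (−0.50).

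Of 4 carriers of other amino acids, none moved lower and 2 moved higher, beside 24.0% and 23.6% of all genes. SLC25A15, the ornithine carrier of the urea cycle, lay at 3.63 and 2.97 (0.79, and 0.21 against genes of the same control position), with its largest control share in fraction 3 (28.7%). SLC25A44, which carries branched-chain amino acids, lay at 4.19 and 3.26 with a relative shift of 0.53, just past the threshold, and fell below it in 8 of 14 alternatives. SLC25A29, a carrier of basic amino acids, lay at 4.72 and 3.31 (0.05), but moved higher with size factors (0.70), and SLC25A38, which brings glycine in for heme synthesis, lay at 4.34 and 2.78 (−0.10).

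Of 9 carriers of cofactors, acylcarnitine and glutathione, 1 moved lower and 2 higher, against 24.0% and 23.6% of all genes. SLC25A20, which carries acylcarnitines for fatty acid oxidation, peaked with 38.1% in fraction 6 of the control and 42.9% in fraction 2 with arsenite, and moved lower (5.16 and 2.59, relative shift −1.12, and −0.735 against genes of the same mRNA length). SLC25A51, which imports NAD, moved higher (3.52 and 2.95, relative shift 0.89), as did SLC25A16 (3.48 and 2.69, 0.67), linked to coenzyme A. Against genes of the same control position these were 0.31 and −0.11, and neither met the rule. SLC25A16 also lost its call against genes of the same mRNA length (0.35), at the point where 50% of the total is reached (0.44) and without fraction 7 (0.48).

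The glutathione carriers SLC25A39 and SLC25A40 lay 1.15 fractions apart in the control (3.08 and 4.22) and 0.90 apart with arsenite (2.01 and 2.91). SLC25A39 was the other member with its largest control share in fraction 2 (32.8%), and its relative shift was 0.39. It met the rule without fraction 1, 4 or 5 (0.61, 0.78 and 0.59) and against the same mRNA length (0.77). The sign turned, with no call, against genes of the same control position (−0.40), without fraction 2 (−0.26) and with size factors (−0.13). SLC25A32, a folate carrier, lay at 4.57 and 2.80, SLC25A26, which carries S-adenosylmethionine, at 3.81 and 2.23, and the coenzyme A carrier SLC25A42 at 4.35 and 2.87. None of these met the rule. Settings that gave them a call were the 50% point for SLC25A32 (−0.57), size factors for SLC25A42 in the opposite direction (0.62), and the same control position for SLC25A26 (−0.59).

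The mitoferrins SLC25A37 and SLC25A28 bring iron into mitochondria. SLC25A37 had shares of 2.37, 8.39, 38.7, 29.8, 12.9, 4.73, 2.44 and 0.771% in the control, and 7.73, 18.8, 36.5, 19.6, 11.1, 2.88, 2.01 and 1.38% with arsenite. Fraction 3 was the largest in both gradients, and the mRNA moved higher than the typical gene (relative shift 1.07, and 0.49 against genes of the same control position, just under the threshold). SLC25A28 lay at 4.08 and 2.79 (0.16, and 0.54 against genes of the same mRNA length, where it met the rule).

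Of 3 carriers of the uncoupling-protein type with an SLC25A symbol, SLC25A27 and SLC25A30 moved higher (23.6% of all genes did) and none lower (24.0%). The uncoupling proteins UCP2 and UCP3 lack such a symbol and are not in this count. UCP2 moved lower (−0.63), and UCP3, listed at 0 in 3 libraries, moved higher (2.20). SLC25A27 had shares of 11.9, 7.04, 16, 46.3, 10.5, 2.31, 4.78 and 1.23% in the control, and 15.8, 13.4, 16.9, 28.1, 19.4, 3.37, 2.15 and 0.812% with arsenite. It peaked in fraction 4 of both gradients, and fractions 5 to 8 together held 18.8% before and 25.8% after arsenite. The relative shift was 1.22 (0.63 against genes of the same control position). SLC25A30 kept the largest share of all members in fractions 5 to 8 with arsenite, 28.4%, and lay at 4.48 and 3.58. Its relative shift of 0.56 fell under the threshold against genes of the same control position (0.47) and without fraction 1, 5 or 7 (0.49, 0.49 and 0.45), and against genes of the same mRNA length it missed the call at 0.496. SLC25A14 began at nearly the same place as SLC25A30 (4.40) but lay at 2.92 with arsenite (−0.03).

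Of 6 less characterised members 2 moved higher and none lower, against 23.6% and 24.0% of all genes. SLC25A53 lay at 3.31 and 2.60 (0.75) and SLC25A45 at 3.81 and 3.06 (0.71), but against genes of the same control position both lost the call (−0.04 and 0.25). SLC25A53 also lost it without fraction 2 (0.48) and against genes of the same mRNA length (0.42), and SLC25A45 by the sign rule at the 50% point (1.21) and without fraction 3 or 7 (0.40 and 0.48). SLC25A46, which acts in mitochondrial fission and fusion, lay at 4.37 and 2.73 (−0.19), SLC25A35 at 3.94 and 2.40 (−0.09), and SLC25A43 at 3.87 and 2.79 (0.38). SLC25A43 met the rule with size factors (0.57) and without fraction 2 or 4 (0.73 and 0.52). SLC25A48 was listed at 0 in 5 of 16 libraries, with 73.5% in arsenite fraction 1. Its relative shift of 0.19 was 2.34 without fraction 1, where it met the rule. It also did so without fraction 4 (0.54) and against genes of the same mRNA length (0.57). The sign turned, with no call, against genes of the same control position (−0.60), at the 50% point (−0.33) and without fraction 5 (−0.12).

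**Figure D3:**
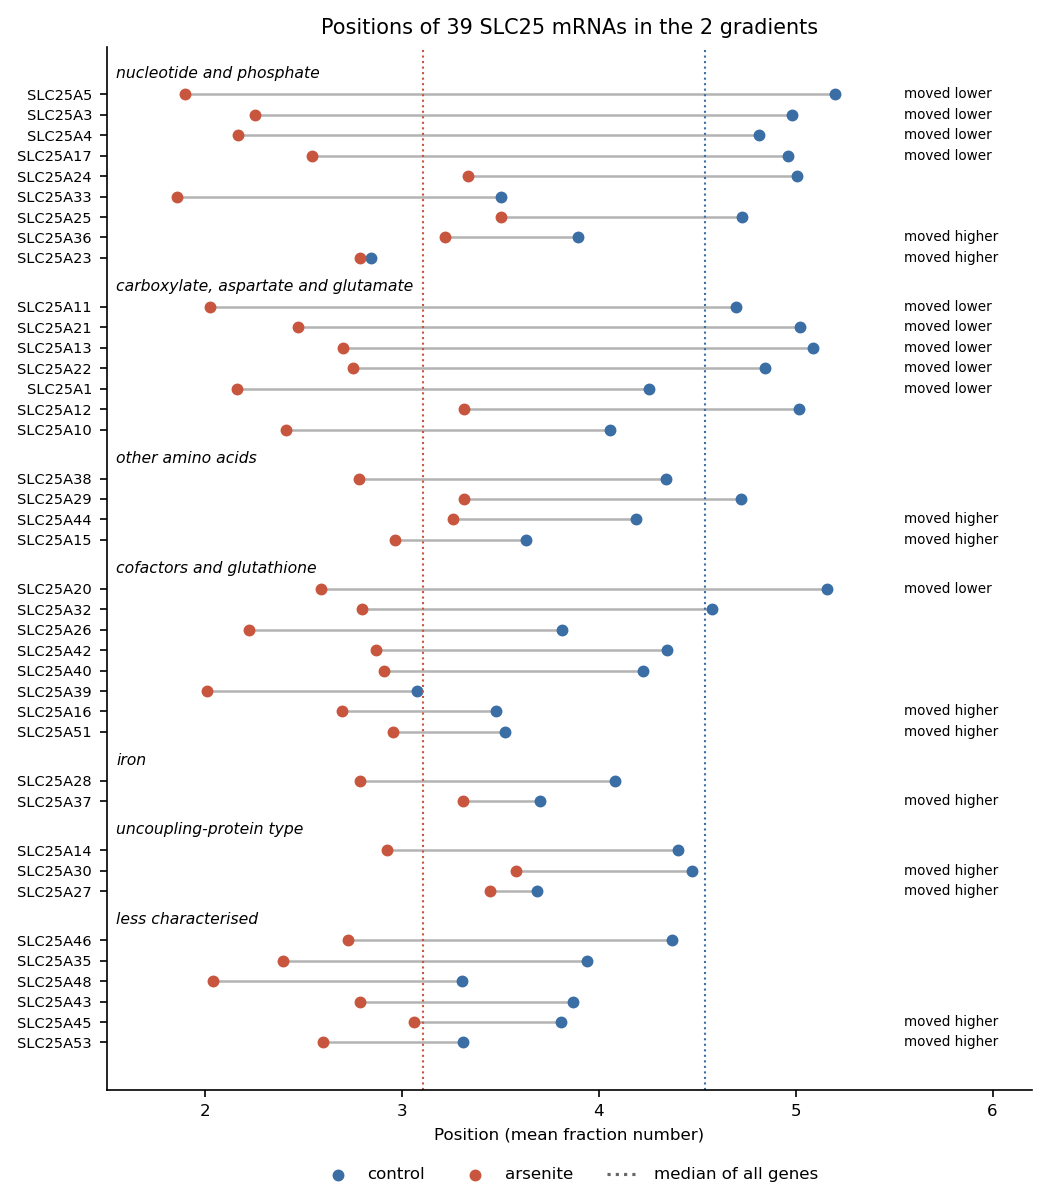
Mean fraction number of each of 39 SLC25 mRNAs in the control (blue) and with arsenite (red), grouped by what the carrier transports and ordered within groups by relative shift, with dotted lines at the medians of all genes (4.54 and 3.10). The longest connecting line is that of SLC25A5 (5.20 to 1.90) and the shortest that of SLC25A23 (2.84 to 2.79).

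Members that moved lower began at higher fraction numbers than most of those that moved higher. The 10 members that moved lower had control positions from 4.25 to 5.20, and 9 of them lay above the median of all genes. The 11 that moved higher had control positions from 2.84 to 4.48, and 0 of them lay above it. With arsenite the former lay from 1.90 to 2.75 and the latter from 2.60 to 3.58, so the ranges overlapped slightly in both gradients. Across the 40 members the Spearman correlation of relative shift with control position was −0.78, against −0.55 over all genes. These points share the same 16 libraries, and the control position is itself part of the shift. Set against the median of genes in the same of 20 bins of control position, 13 members moved lower and 2 higher (SLC25A23 and SLC25A27), against 20.2% and 18.1% of all genes, and the median member lay at −0.26. Thus 9 of the 11 calls to higher numbers were lost on this scale, while 9 of the 10 to lower numbers were kept. The lowest bin was wide, so SLC25A23 (2.84) was set against the same genes as SLC25A33 (3.50).

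**Figure D4:**
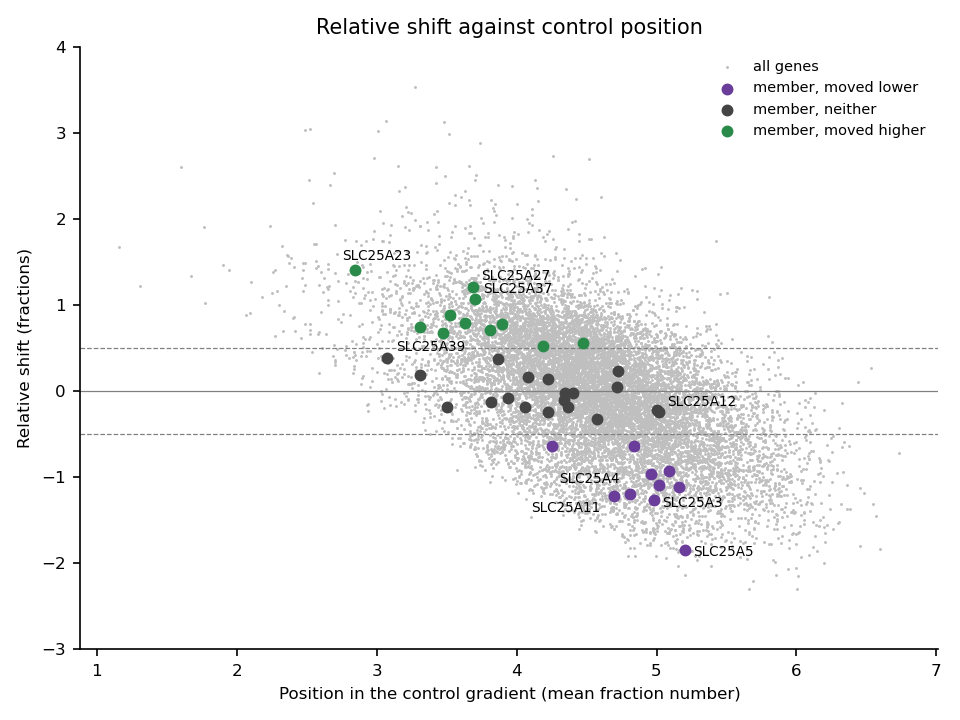
Relative shift (fractions) against control position (mean fraction number), with all 13148 genes in grey (1 gene lies outside the plotted range) and the 40 SLC25 mRNAs coloured by call. Dashed lines mark the threshold of 0.5 fractions. The members slope downward, from SLC25A23 at the upper left (2.84, 1.40) to SLC25A5 at the lower right (5.20, −1.84).

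Most carriers have short coding sequences, with a median of 943.5 nt against 1428 nt over all genes with a sequence. They ran from 822 nt (SLC25A26) to 2034 nt (SLC25A12). The median mRNA had 2728 nt against 3288 nt. Over all genes the arsenite position had a Spearman correlation of 0.67 with mRNA length, and over the 40 members of 0.39. For the control position these were 0.23 and −0.05. The median mRNA was 2079.5 nt among the members that moved lower and 3482 nt among those that moved higher. Against genes in the same of 10 bins of mRNA length, the median member lay at 0.13, with 9 moved lower and 10 higher, against 21.1% and 20.8% of all genes.

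For 10 members, other genes cover at least 10% of the mRNA in GENCODE 29, either by exact windows of 50 nt or by overlapping exons, with strand handling not given in the sources used here. SLC25A32 had most of its windows in another gene, 87.9%, followed by SLC25A10, at 63.9%, both mainly in overlapping genes on the same strand. SLC25A51 had 28.5%, chiefly in its copy SLC25A52, and SLC25A33 had 20.7%, spread over 272 genes. Exons of opposite strand cover 36.4% of SLC25A21, 19.1% of SLC25A25, 18% of SLC25A29, 17.8% of SLC25A5 and 12.9% of SLC25A11, so their values could include reads of the partner. For SLC25A5, 4.6% of windows were shared, chiefly with the pseudogene SLC25A5P3. Without these 10 members, 7 of 30 moved lower and 10 higher (all genes 24.0% and 23.6%), in a comparison chosen after seeing the data. The percentages of all genes are not filtered for overlap in the same way.

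Genes related in structure or function that fall outside the symbol rule were set beside the 40 members. Of 4 carrier-fold genes without an SLC25A symbol, MTCH2, an outer membrane protein, moved lower (4.39 and 1.77, relative shift −1.16), as did the uncoupling protein UCP2 (4.44 and 2.35, −0.63). MTCH1 lay at 4.28 and 2.44 (−0.38) and met the rule for lower with size factors (−0.74). UCP3 moved higher (4.16 and 4.91, relative shift 2.20) and was listed at 0 in 3 libraries. Among 20 other transporters and channels of the mitochondrial membranes, 10 moved lower and none higher (all genes 24.0% and 23.6%), with a median relative shift of −0.69. With size factors 11 of the 20 moved lower and 2 higher (all genes 26.4% and 28.7%). The largest relative shift in size was that of VDAC3, a channel of the outer membrane (5.16 and 1.86, relative shift −1.85). Of 12 genes on the import route of carrier proteins, 4 moved lower and none higher (all genes 24.0% and 23.6%). With size factors 5 of the 12 moved lower and 1 higher (all genes 26.4% and 28.7%). The median relative shift of these 12 genes was −0.41 (−0.73 with size factors, −0.205 against genes of the same mRNA length). TIMM10, a chaperone that guides carriers through the space between the membranes, went furthest (4.40 and 1.99, −0.96). Against genes of the same mRNA length its value was −0.30, and it was no longer the lowest of the set.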

How the data were processed

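Each of 16 libraries is 1 fraction of a gradient of 293S cells, and groups were taken from the sample titles. Per the file headers, the authors deposited 1 table over exons of RefSeq genes, with the unit fraction, the share of a gene's total in a library. The 8 values of a gradient summed to 1 within 2.2e-15. The deposited score columns, the mean fraction number and its change, differed from recomputed values by at most 1.0e-14. Per the submitters' processing notes the genome was hg19. Aligner, read counting, strand, scaling between fractions and gene filter: not given in the sources used here. Depth is unknown, so no interval is given. No share was altered for the main values.

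Positions, relative shifts and calls were computed in Python 3.11.15 with numpy 2.4.6 and pandas 2.3.3, and the functions were tested on simulated data. The rule for named genes gave all 16 shares for SLC25A3, SLC25A4, SLC25A5 and the 3 members that shifted most, in either direction, among those with no 0, and positions for the others, except 1 member that is counted with the family and not reported singly here. The members, role lists, rules and alternatives were chosen with earlier results of these data known. Lengths and sequences come from 1 protein-coding GENCODE release 29 transcript per gene (principal isoform, or the longest coding part where that isoform had under 50% of it), matched for 13061 genes (99.3%), 745 of them through synonyms. Since its genome build is not hg19, no coordinates are given. Alternatives were size factors (median of ratios), a pseudocount of 1 percentage point, genes with no 0, centring within bins of control position or mRNA length, the 50% point, other thresholds and leaving out each fraction.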

Additional observations from a re-analysis of the deposited data

How the results depend on the processing

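The share of all genes that moved also differed between settings, so it is given beside each count of the 40 members at the threshold of 0.5 fractions. Members moved lower ran from 8 without fraction 2 (all genes 19.5%) to 13 for the same control position (all genes 20.2%). Members moved higher ran from 2 for the same control position (all genes 18.1%) to 14 with size factors (all genes 28.7%). Without fraction 7 they were 7 (all genes 22%). At a threshold of 1 fraction, 6 moved lower and 3 higher, against 9.33% and 6.69% of all genes. The median relative shift was −0.26 against genes of the same control position, 0.13 against genes of the same mRNA length, 0.15 without fraction 5, −0.17 without fraction 7 and 0.0582 without the 10 members that share sequence or overlap with other genes, the last chosen after seeing the data. In the other alternatives it stayed within 0.1 fractions of −0.06. The median change of the share in fractions 5 to 8 was −4.75 percentage points with size factors (all genes −2.82), and −5.78 when taken relative to genes of the same control position. By construction, both settings take out most of a change common to all genes. Of the 21 called members, 10 kept their call in all 14 alternatives that kept the threshold: SLC25A3, SLC25A4, SLC25A5, SLC25A11, SLC25A13, SLC25A17, SLC25A20, SLC25A21, SLC25A23 and SLC25A27. Against genes of the same control position the sign turned for SLC25A16 (−0.11) and SLC25A53 (−0.041), and with size factors SLC25A42, which had no call, moved higher (0.62). The causes were not tested, beyond the smaller number of genes or fractions that an alternative leaves by construction. No paired analysis was possible because each treatment and fraction has 1 library. Depth cannot be recovered from shares, so counting error is unknown for every value.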
